A study of Mus musculus with 4 samples.

Results

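Homeobox patterning genes outside the Hox clusters were followed in mouse embryonic fibroblasts (MEFs) of cyclin G knockout and wild-type mice. The set holds 54 genes with 70 probes, of 31829 gene names and 39429 probes on the array, and was chosen by gene name from families that pattern the embryo (Alx, Barx, Dlx, Msx, Pax, Six2 and its relatives, En, Otx, Lhx, Lmx1, Isl, Meis, Pbx, Pitx, Meox, Nkx, Irx, Shox2, Emx2, Prrx2 and Cdx2). All 54 names were found. The rule selects by name alone, but the names were put together with earlier results of these data known, so the set is not an unselected sample of homeobox genes.

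Cy3-labelled RNA was read on 4 Agilent Whole Mouse Genome arrays in a single color, 1 array per label, all on 1 slide. The arrays carried RNA of MEFs labelled G2KO (CycG2-/-), their wild type (WT, CycG2+/+), double knockout (DKO, CycG1-/-CycG2-/-) and the WT of DKO (CycG1+/+CycG2+/+). All mice were C57BL/6J, and all MEFs were untreated and in logarithmic growth phase. CycG1 and CycG2 are related proteins of the DNA damage response that recruit protein phosphatase 2A, and the comparisons ask which transcripts differ when CycG2, or both, are absent. MEFs are cultured from whole embryos of mid-gestation, so a culture can hold mesenchyme of several body regions, and the sources used here do not say whether RNA came from a single embryo or a pool. With 1 array per label there is no replicate error and no p-value. Each ratio compares a pair of arrays, and fewer cells of a type cannot be told apart from less RNA per cell.

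The homeobox is a DNA stretch that codes for a DNA-binding domain, the homeodomain, found in transcription factors that give cells their place in the embryo. The members are named for the regions they are best known for. Alx, Dlx, Msx, Barx and Prrx2 act in mesenchyme of the face and branchial arches, much of it from neural crest, and En, Otx, Emx2, several Pax and many LIM-homeobox (Lhx) genes act in brain and neural tube. Shox2 and Pitx1 shape the limb, Meox, Nkx3-2, Pax1 and Pax9 the somites and axial skeleton, and Meis and Pbx are TALE proteins that bind DNA together with Hox proteins. Pax1 and Pax9 carry the paired box of their family without a homeobox. Cultured fibroblasts are known to keep region-specific expression of such genes.

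For 8 members with large differences, chosen to show each order of arrays, the probes are given here as the first 30 bases of each 60-base probe, 5′ to 3′ as printed in the array files, in lower case because no part of them is singled out. The first 4 belong to genes that were bright on the array labelled G2KO and on the WT array of DKO, the fifth to the gene that stood highest on the array labelled WT of G2KO, and the last 3 to genes that stood highest on DKO. Positions of the whole probes are those of the files, on mm9. The Shox2 probe covers a longer genomic stretch than its own length.
Alx1, chr10:102471172-102471231: tgtatttgcatggatatctgggcacagttt
Dlx2, chr2:71381553-71381612: gatttgaatttgtttttatcttgtcctaaa
Shox2, chr3:66779435-66779814: agagctaagtgtagaaaacaggaaaatcaa
Lhx8, chr3:153969377-153969436: gtgaatttgcaactgaaatttattttgcca
En2, chr5:28498468-28498528: ttgtaatttaagagtctgtgaataaccatc
Lhx2, chr2:38224933-38224992: agagcttccgtattttcaaagactgccacg
Six2, chr17:86083634-86083693: ccattttacgccctcatgtgaatgttcgtc
Dlx4, chr11:95001777-95001836: cctcgctgttgcctcgatcaaagaaactgc

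In what follows, a level is the signal intensity of a probe divided by the 75th percentile of its array, and levels of different probes are not set against each other. Where a probe was not well above background on an array, as flagged by the scanner software, it is called dim there, and a ratio against that array is a limit ("at least" or "at most"). A gene dim on both arrays has no ratio.

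The knocked-out genes themselves were read first. Ccng1 had a level of 1.66 on the WT array of DKO, 1.98 on the array labelled G2KO, 9.45 on the array labelled WT of G2KO, and was dim on DKO at 0.00685, at least 228-fold below its WT. Ccng2 gave signal well above background on every array, at 0.0806, 0.0910, 0.104 and 0.0619 in the same order, and did not separate the CycG2-/- labels from the others. Whether its probe lies in the deleted part was not given in the sources used here. Over all genes, the array labelled G2KO differed least from the WT array of DKO: the SD of log2 ratios was 0.572 between these arrays, against 0.905 between the arrays labelled G2KO and its WT, 1.04 between the WT arrays and 1.07 between DKO and its WT. It is not known whether these array labels, G2KO and its WT, were swapped. The study lists En2 and Sox2 as higher and Pdgfra as lower in G2KO MEFs, the opposite of the direction that the labels give here. Directions in this comparison therefore rest on the labels alone, the arrays are called "labelled G2KO" and "labelled WT", and with the labels exchanged each ratio would keep its size and change sign. The study ascribes higher Xist in its G2KO MEFs to their female origin, so these MEFs and their WT may also differ in sex. Xist was not read here. Of 10 fibroblast marker genes, 10 were well above background on every array but the labelled WT, where 8 were, with Pdgfra and Lum dim. The summed level of these markers was 408 on the WT of DKO, 328 on the labelled G2KO, 223 on the labelled WT and 307 on DKO. Between 65.0% and 72.2% of probes were well above background per array, and no spot was saturated.

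Between 38 and 44 of the 54 members were well above background on an array, 30 of them on all 4 arrays. The members dim throughout were 6: Barx1, Isl1, Lmx1a, Pax1, Pax8 and Pitx1. Members lay far apart between arrays. In DKO over its WT, 16 of 46 members compared (34.8%) differed at least 4-fold, where 7.85% of all genes did. Of these 16, 13 were lower in DKO and 3 higher, whereas 3.91% of all genes were lower and 3.94% higher. Of the homeobox genes that are not members, 12.2% of those compared differed at least 4-fold. In the labelled G2KO over the labelled WT, 13 of 46 members (28.3%) differed at least 4-fold, 8 higher and 5 lower (5 higher and 8 lower with the labels exchanged), beside 5.72% of all genes, 3.71% higher and 2.02% lower. Between the WT arrays, the WT of DKO over the labelled WT of G2KO, 14 of 45 members (31.1%) differed at least 4-fold, 10 higher and 4 lower, beside 7.26% of all genes, 4.55% higher and 2.71% lower. The share of members apart was thus of like size between the arrays labelled wild type and between each knockout and its WT. In contrast to these pairs, 0 of 44 members differed at least 4-fold between the labelled G2KO and the WT of DKO. This lies near the share of all genes in that pair (2.24%).

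**Figure D1:**
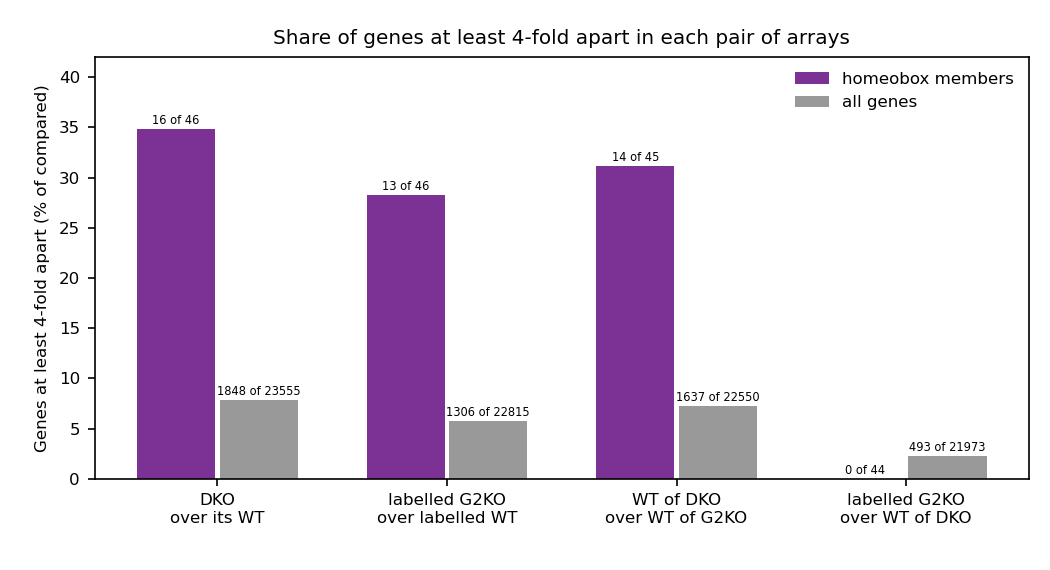
Share of homeobox members (purple) and of all genes (grey) that differed at least 4-fold in each pair of arrays, in percent of the genes compared, with the counts above the bars; limits against a dim array are counted. The members reached 28.3% to 34.8% in 3 pairs and 0 of 44 between the array labelled G2KO and the WT array of DKO. In the last pair the share of all genes was 2.24%.

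Counted with the members measured on both arrays, the median log2 ratio was -0.64 (32 members) in DKO over its WT, -0.30 (38 members) in the labelled G2KO over the labelled WT and 0.19 (35 members) between the WT arrays. The medians over all genes were -0.02, -0.17 and -0.06. Without regard to sign, the median member differed by 0.86, 0.97 and 0.92 on the log2 scale in these comparisons, and the median gene by 0.40, 0.41 and 0.43. Between the labelled G2KO and the WT of DKO the median member differed by 0.29 and the median gene by 0.26. The comparisons share arrays (the WT of DKO serves in the first and the last, the labelled WT in the other pair), so their counts are not independent of each other.

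Over the 4 arrays, 22 of the 48 members bright on at least 1 array (45.8%) spanned at least 4-fold from highest to lowest, beside 15.5% of all genes. In 11 of these 22 (50%), the labelled G2KO and the WT of DKO were the highest pair of arrays, as for 22.6% of all genes with such a span. These 11 were Alx1, Dlx1, Dlx2, Dlx5, Irx3, Lhx8, Lhx9, Msx1, Pax3, Pax9 and Shox2. DKO was the highest array for 3 of the 22 members and for 39.3% of all such genes. DKO lay at least 4-fold from each of the other arrays in the same direction for 7 of 48 members, beside 3.67% of all genes: Dlx4, Lhx2 and Six2 above them, and Dlx1, Irx1, Msx2 and Pax9 below them. The labelled WT of G2KO stood apart in the same way for 5 members, beside 2.09% of all genes, with En2, Msx2 and Nkx6-1 above the other arrays and Pax3 and Six2 below them.

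**Figure D2:**
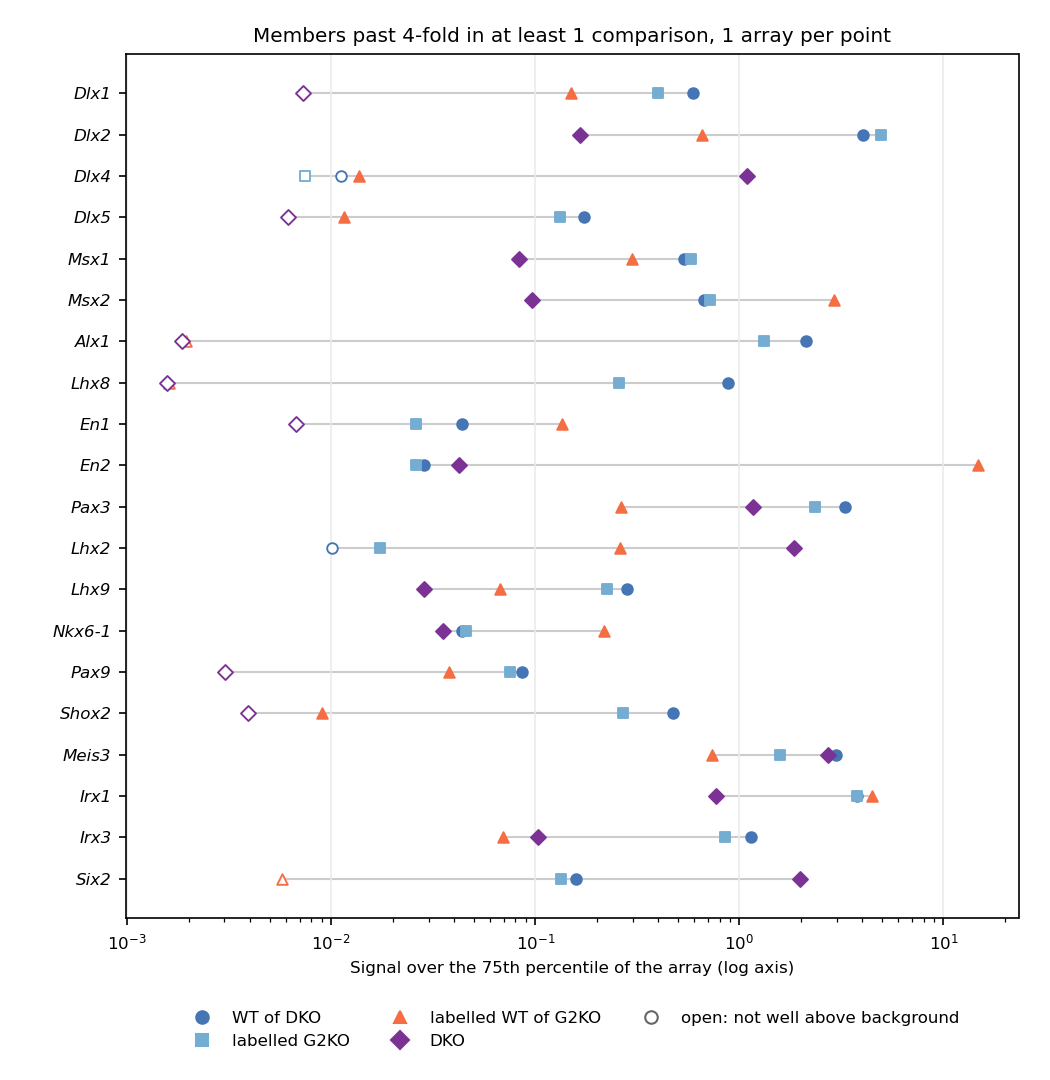
Levels of the 20 members that differed at least 4-fold in at least 1 of the 3 comparisons, 1 point per array, on a log axis of signal over the array's 75th percentile; open points are not well above background and grey lines join the arrays of a gene. For most genes the points of the labelled G2KO and the WT of DKO lie side by side, while En2 stands alone on the labelled WT (14.8) and Dlx4, Lhx2 and Six2 on DKO.

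Of the 13 members lower in DKO, 7 belonged to the face and branchial arch genes, of which 14 were compared and 1 was higher. Of all genes, 3.91% were lower and 3.94% higher. Alx1, a factor of the mesenchyme of the upper face, had a level of 2.12 on the WT of DKO and 1.33 on the labelled G2KO. It was dim on the other arrays, at 0.00195 on the labelled WT and 0.00185 on DKO. Alx1 was thus at least 290-fold lower in DKO than in its WT, at least 185-fold higher on the labelled G2KO than on the labelled WT, and at least 296-fold apart between the WT arrays. Lhx8, which acts in mesenchyme of the mouth and palate, had the same order, with 0.877 on the WT of DKO, 0.257 on the labelled G2KO, and dim signals of 0.00161 on the labelled WT and 0.00156 on DKO. Its limits were 120-fold lower in DKO, 35.9-fold higher on the labelled G2KO and 123-fold between the WT arrays. Of all members measured on both arrays, Lhx8 differed most between the labelled G2KO and the WT of DKO, with a log2 ratio of -1.77.

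The Dlx genes, which set proximal and distal fates in the branchial arches, lie as neighbouring pairs. Dlx1 had levels of 0.594 on the WT of DKO, 0.398 on the labelled G2KO and 0.149 on the labelled WT, and was dim on DKO at 0.00724. It was at least 81.3-fold lower in DKO than in its WT, and the labelled G2KO exceeded the labelled WT 2.67-fold. Dlx2, with its probe 10.1 kb from that of Dlx1, had levels of 4.02, 4.97, 0.654 and 0.165 in the same order. All 4 arrays measured Dlx2, so that its difference of 24.4-fold between DKO and its WT is no limit, and the labelled G2KO was 7.59-fold above the labelled WT. Both genes of the pair were thus lowest on DKO and highest on the arrays of the WT of DKO and the labelled G2KO.

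The other Dlx pairs did not read alike, with Dlx6 near the limit of detection. Dlx5, also a factor of bone formation, had levels of 0.174 on the WT of DKO, 0.132 on the labelled G2KO and 0.0115 on the labelled WT, and was dim on DKO at 0.00611, at least 23.8-fold lower than in its WT. The labelled G2KO was 11.4-fold above the labelled WT. Dlx6, whose probe lies 13.0 kb away, stayed between 0.00958 and 0.0168 on the 3 arrays that measured it. It was dim on the WT of DKO and was called past 4-fold in no comparison. These levels lie near the lowest that were well above background (0.0066 to 0.0102 per array). They do not show whether Dlx6 changes with Dlx5. Dlx4, a gene known from placenta, had a level of 1.09 on DKO and 0.0138 on the labelled WT, and was dim at 0.0112 on the WT of DKO and 0.00744 on the labelled G2KO. It was at least 97.2-fold higher in DKO than in its WT. Its neighbour Dlx3, with a probe 15.5 kb away, lay between 2.20 and 4.09 on all arrays, with a log2 ratio of 0.02 in DKO over its WT.

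**Figure D3:**
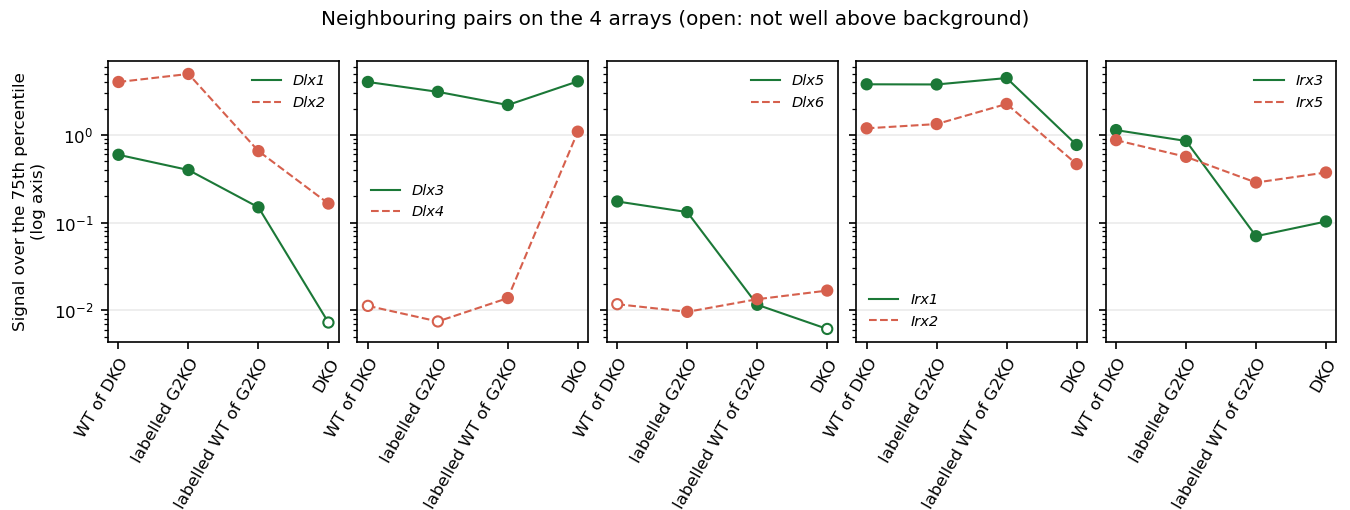
Levels of 5 neighbouring pairs of Dlx and Irx genes on the 4 arrays, on a log axis of signal over the array's 75th percentile; open points are not well above background, and lines only join points of a gene, since arrays have no order and heights of different probes are not comparable. Dlx1 and Dlx2 move together, while Dlx4 is high on DKO with Dlx3 nearly level. Dlx5 differs between arrays on which Dlx6 lies near 0.01, close to background.

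Msx1 and Msx2, targets of bone morphogenetic protein (BMP) signals in skull and tooth, were both lower in DKO. Msx1 had levels of 0.535 on the WT of DKO, 0.579 on the labelled G2KO, 0.298 on the labelled WT and 0.0832 on DKO, 6.43-fold below its WT. Msx2 had levels of 0.672, 0.721, 2.90 and 0.0959 in the same order and was 7.01-fold below its WT in DKO. Here the labelled WT was the highest array, 4.02-fold above the labelled G2KO and 4.32-fold above the WT of DKO. In this group Barx2, Alx4, Lhx6 and Prrx2, a factor of limb and face mesenchyme, reached 4-fold in no comparison. Prrx2 had levels of 25.2, 14.0, 20.8 and 8.32 and was 3.03-fold lower in DKO. Lhx6 had levels of 12.1, 8.85, 4.60 and 8.29. A dimmer Lhx6 probe, at 0.138, 0.176, 0.0445 and 0.0367, had log2 ratios of -1.91 in DKO and 1.98 on the labelled G2KO where the brighter probe had -0.54 and 0.94.

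The signals and cofactors around these genes were read from lists of other homeobox genes, patterning signals and protein partners. Of 9 patterning signals compared in DKO over its WT, 1 was at least 4-fold higher and 3 lower, beside 3.94% and 3.91% of all genes. Bmp4, which induces Msx genes in face mesenchyme, had levels of 22.8 on the WT of DKO, 3.39 on the labelled G2KO, 0.846 on the labelled WT and 5.42 on DKO, 4.21-fold below its WT. Edn1, which acts upstream of Dlx5 and Dlx6 in the branchial arches, had levels of 0.863, 2.30, 2.15 and 0.0940 and was 9.18-fold lower in DKO. Fgf10, a signal of limb mesenchyme, had levels of 2.50, 1.56, 0.0672 and 0.238, with DKO at a log2 ratio of -3.39 to its WT and the labelled G2KO 23.2-fold above the labelled WT. Bmp2 was dim on both WT arrays, had a level of 0.102 on DKO and 0.0126 on the labelled G2KO, and was at least 9.96-fold higher in DKO. In the labelled G2KO over the labelled WT, 2 of 9 signals were at least 4-fold higher (Bmp4 and Fgf10) and none lower. Between the WT arrays the same genes were the 2 of 8. Of all genes, 3.71% and 4.55% were at least 4-fold higher in these comparisons.

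Of the 68 other homeobox genes on the array, those at least 4-fold apart were 5 of 41 compared in DKO over its WT (12.2%), 3 of 39 in the labelled G2KO over the labelled WT (7.69%) and 6 of 39 between the WT arrays (15.4%). Gsc, a gene of the early embryo's organizer and the face, had levels of 0.113, 0.0807 and 0.0254 on the WT of DKO, the labelled G2KO and the labelled WT, and was dim on DKO, at least 15.4-fold lower. Nkx2-9 was dim on all arrays but DKO (0.123, at least 12.0-fold higher) and Pbx4 was 6.52-fold higher there, at 0.132 against 0.0203. Emx1 and Six3, factors of the forebrain, were highest on the labelled WT at 0.14 and 0.0819, 13.7-fold and 7.74-fold above the labelled G2KO. Prrx1, the paralogue of Prrx2, had levels of 8.02, 4.29, 1.15 and 2.03 and differed 6.97-fold between the WT arrays. Of protein partners of the members, 1 of 15 (6.67%) differed at least 4-fold in DKO over its WT. On the labelled G2KO 2 of 16 (12.5%) did, and between the WT arrays 1 of 15 (6.67%). The shares of all genes in these comparisons were 7.85%, 5.72% and 7.26%, so the partners lay near them. Ldb2, which bridges LIM-homeodomain proteins, had levels of 0.206 on the WT of DKO and 0.197 on the labelled G2KO and was dim on the labelled WT and DKO, at least 28.2-fold lower in DKO and at least 27.5-fold higher on the labelled G2KO. Eya4, a partner of Six2 and its relatives, was 5.16-fold lower on the labelled G2KO (0.405) than on the labelled WT (2.09).

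Among brain and neural tube genes, 3 of 13 compared differed at least 4-fold in DKO over its WT, 1 higher and 2 lower. In the labelled G2KO over the labelled WT 5 of 14 did, 1 higher and 4 lower. Between the WT arrays 5 of 13 did, 2 higher and 3 lower. The shares of all genes were 7.85%, 5.72% and 7.26% in the same order. En2, which marks the border of midbrain and hindbrain, had the widest difference. Its level was 14.8 on the labelled WT, and 0.0284 on the WT of DKO, 0.0260 on the labelled G2KO and 0.0424 on DKO. The labelled WT exceeded the labelled G2KO 567-fold and the WT of DKO 519-fold, all measured well above background. With the labels exchanged, En2 would be 567-fold higher in G2KO MEFs than in their WT. The En2 probe has 10 spots per array, whose highest SD within an array was 0.178 on the log2 scale. En1, its paralogue, which also acts in ventral limb and dermis, was highest on the same array at 0.135, with 0.0435 on the WT of DKO, 0.0260 on the labelled G2KO and a dim 0.00672 on DKO. It was 5.19-fold lower on the labelled G2KO than on the labelled WT and at least 5.96-fold lower in DKO than in its WT. The En1 probe also has 10 spots, with a highest SD of 0.461. After another background correction, normexp, the En1 log2 ratios were -0.60 in DKO and -1.62 on the labelled G2KO. Both were then below 4-fold.

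Nkx6-1, a factor of ventral neural tube and pancreas, had levels of 0.217 on the labelled WT, 0.0436 on the WT of DKO, 0.0458 on the labelled G2KO and 0.0354 on DKO. The labelled WT was 4.74-fold above the labelled G2KO and 4.98-fold above the WT of DKO. Marker genes of neural progenitors moved with En1, En2 and Nkx6-1. Their summed level over 9 genes was 30.7 on the labelled WT and 1.47 to 2.23 on the others. Sox2 had a level of 2.37 on the labelled WT and was dim on the other arrays, and Nes had 28 against 1.07 to 1.96. Of the 9 markers, 7 were well above background on the labelled WT, and Olig2 was dim on all 4 arrays. Their part in the levels of these members was not tested.

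Pax3, a factor of dorsal neural tube, neural crest and muscle progenitors, went the other way. Its level was lowest on the labelled WT at 0.264, with 3.29 on the WT of DKO, 2.35 on the labelled G2KO and 1.16 on DKO. The labelled G2KO was 8.92-fold above the labelled WT, and DKO 2.83-fold below its WT. Against the labelled WT of G2KO, DKO had a Pax3 log2 ratio of 2.14, past 4-fold the other way. A second Pax3 probe gave log2 ratios of 3.36 and -1.82 where the first gave 3.16 and -1.50. Lhx9, a gene of gonad and limb, had levels of 0.281 on the WT of DKO, 0.225 on the labelled G2KO, 0.0674 on the labelled WT and 0.0285 on DKO, 9.85-fold below its WT. The 3 Lhx9 probes gave log2 ratios of -3.30, -3.37 and -3.69 in DKO. On the labelled G2KO they gave 1.74, 2.29 and 2.50, so that the call there depends on the probe. After normexp the Lhx9 log2 ratio in DKO was -1.96, just below 4-fold. Neural crest markers lay close on all arrays, with a summed level of 0.196 to 0.366 over 4 genes, Foxd3 dim throughout. The other marker lists had summed levels of 9.11 to 19.0 (neuron), 0.0472 to 0.510 (myoblast), 1.92 to 3.69 (keratinocyte and epithelium) and 0.276 to 2.17 (cardiomyocyte), with Myf5 and Epcam dim on all arrays. Single genes of these lists differed more than the sums: the neuronal Stmn2 had levels of 0.199 on the WT of DKO and 0.184 on the labelled G2KO and was dim on the others, and Tubb3 had levels of 0.749 and 1.62 on these arrays, 0.188 on the labelled WT and 0.167 on DKO. In DKO over its WT, 2 of 5 neuronal genes compared were at least 4-fold lower, beside 3.91% of all genes. Of these 5, Dcx and Elavl3 gave no ratio. On the labelled G2KO 2 of 3 neuronal genes were at least 4-fold higher than on the labelled WT, beside 3.71% of all genes. The myoblast gene Chrna1 was at least 13.9-fold lower in DKO, the epithelial Cdh1 at least 24.1-fold higher and the cardiac Tnnt2 9.84-fold higher. Their part in the levels of the members was not tested.

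Lhx2, a factor of eye, forebrain and hair follicle, was high on DKO. Its level was 1.85 on DKO, 0.261 on the labelled WT and 0.0173 on the labelled G2KO, and it was dim on the WT of DKO at 0.0101. DKO was at least 181-fold above its WT, and the labelled G2KO 15.1-fold below the labelled WT. Six2, known from nephron progenitors of the kidney and from face mesenchyme, had levels of 1.99 on DKO, 0.159 on the WT of DKO and 0.134 on the labelled G2KO, and was dim on the labelled WT at 0.00577. It was 12.5-fold higher in DKO than in its WT and at least 18.8-fold higher on the labelled G2KO than on the labelled WT. A dimmer Six2 probe gave a log2 ratio of 3.28 in DKO where the brighter gave 3.65, and 0.41 as the lower limit on the labelled G2KO.

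Dlx4, Lhx2 and Six2 were thus high on the array on which mesothelial markers were high. All 10 mesothelial genes examined were at least 4-fold higher in DKO than in its WT, 8 of them as limits, and their summed level was 149 on DKO and 0.597 to 1.59 on the other arrays. Wt1 had a level of 8.96 on DKO and was dim on the others, and Msln had 100 on DKO and 0.492 on the WT of DKO. On the same array 4 of 10 fibroblast markers were at least 4-fold lower, Pdgfra 176-fold, Postn 186-fold, Thy1 18.0-fold and Pdgfrb 13.1-fold, while Dcn was 16.6-fold higher. Pdgfra was dim on the labelled WT, and Thy1 was 115-fold lower there than on the labelled G2KO. Chondrocyte markers had a summed level of 8 on the WT of DKO, 1.77 on the labelled G2KO, 2.57 on the labelled WT and 0.355 on DKO, with Matn1 dim throughout. Sox9 among them was 6.22-fold lower in DKO and 18.9-fold higher on the labelled G2KO than on the labelled WT. Col2a1, at 6.54 on the WT of DKO, was 140-fold lower in DKO and 2.79-fold lower on the labelled G2KO than on the labelled WT. Of 4 chondrocyte genes measured on both arrays, 2 were higher and 2 lower in DKO. On the labelled G2KO 1 was higher and 3 were lower. The part of these cell types in the levels of the homeobox genes was not tested.

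In limb and axial skeleton genes, Shox2 and Pax9 were lower in DKO. Shox2, which is required for the proximal limb skeleton, had levels of 0.472 on the WT of DKO, 0.269 on the labelled G2KO and 0.00899 on the labelled WT, and was dim on DKO at 0.00390. It was at least 64.6-fold lower in DKO than in its WT, 30-fold higher on the labelled G2KO than on the labelled WT, and 52.5-fold apart between the WT arrays. Pax9, which acts in sclerotome, tooth and palate, had levels of 0.0864, 0.0750 and 0.0380 on the same arrays. On DKO it was dim at 0.00303, at least 11.8-fold below its WT. After normexp the Pax9 log2 ratio in DKO was -1.23, below 4-fold. A second Pax9 probe was dim on all arrays but the labelled G2KO (0.00913) and gave no ratio in DKO. The 4 other genes of the axial skeleton list were not called past 4-fold. Among them Pax1 was dim on all arrays, and Meox1 and Meox2 had limits only where an array was dim. Meox1, at 0.0258, 0.0283 and 0.0155 on the arrays that measured it, was at least 3.94-fold above the labelled WT on the labelled G2KO.

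The Iroquois genes lie in clusters and act in limb, heart and neural patterning. The 4 Iroquois members all had lower levels in DKO than in its WT, 2 of 4 at least 4-fold, beside 3.91% of all genes. Irx3 had levels of 1.14 on the WT of DKO, 0.854 on the labelled G2KO, 0.0699 on the labelled WT and 0.103 on DKO, 11.0-fold below its WT. Its neighbour Irx5, with a probe 562 kb away, had levels of 0.872, 0.562, 0.286 and 0.373, the same order of arrays over a narrower range, and was 2.34-fold lower in DKO. Irx1 had levels of 3.78, 3.77, 4.46 and 0.769 and was 4.92-fold lower in DKO, while Irx2, at 676 kb from it, had 1.19, 1.33, 2.26 and 0.465 and was 2.56-fold lower. Irx1 and Irx2 were lowest on DKO and highest on the labelled WT, whereas Irx3 and Irx5 were lowest on the labelled WT and highest on the WT of DKO.

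**Figure D4:**
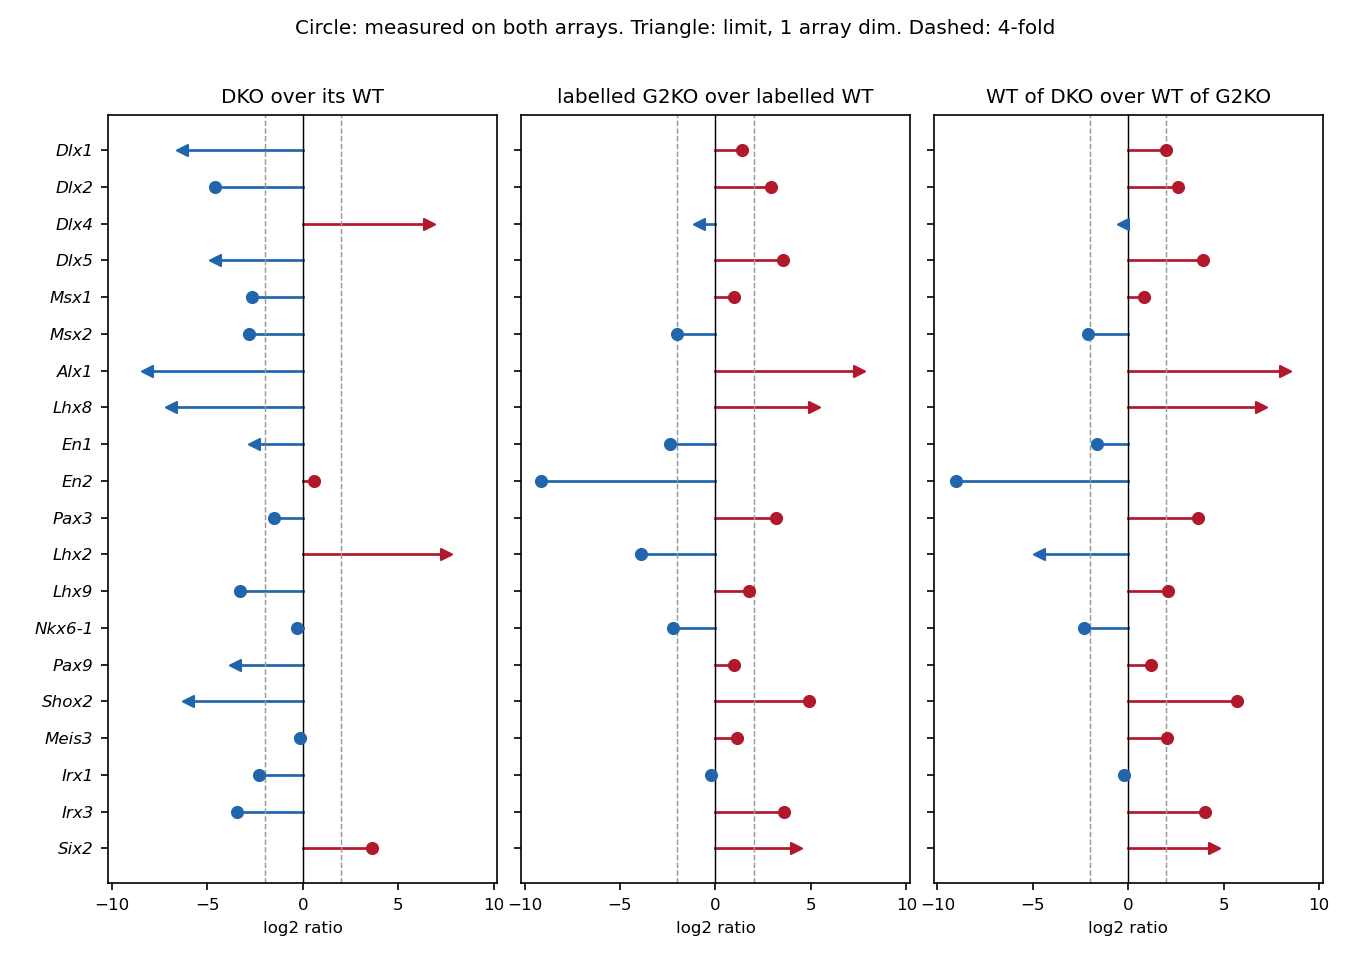
The log2 ratios of the 20 members in the 3 comparisons; circles were measured on both arrays, triangles are limits with 1 array dim, and dashed lines mark 4-fold. In DKO over its WT, 13 members lie past 4-fold to the left and 3 to the right; the other comparisons share the array labelled WT.

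The TALE cofactors of Hox proteins were bright on all arrays. Of Meis1, Meis2, Meis3, Pbx2 and Pbx3, 0 of 5 reached 4-fold in DKO or on the labelled G2KO, and only Meis3 did so between the WT arrays, with 2.99 on the WT of DKO against 0.736 on the labelled WT (4.06-fold). Its levels on the labelled G2KO and DKO were 1.58 and 2.72. Meis1 came closest in DKO, 3.87-fold lower at 0.629 against 2.44, and was highest on the labelled WT at 4.59. Pbx2 stayed between 0.820 and 1.21.

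The other 34 members were called past 4-fold in none of the 3 comparisons. Of these, 7 (the 6 dim on all arrays and Otx2) had no ratio in any comparison, and others have limits only, which do not show that they lie within 4-fold. Beside those described above, Six4, Six5, Emx2, Pitx3, Lmx1b, Lhx1, Nkx2-5, Nkx3-2 and Pax2 were well above background on all 4 arrays. Nkx2-5, the early heart factor, was the most even, at 0.0145 to 0.0158. These levels lie near the lowest that were well above background (0.0066 to 0.0102 per array). Cdx2, a gene of trophoblast and gut, was dim on all arrays but DKO, where its level of 0.0213 was at least 2.08-fold above the WT. Otx1 was measured on the labelled WT alone (0.0197), Otx2 on DKO alone (0.00895) and Pax6 on the labelled G2KO alone (0.0160).

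**Figure D5:**
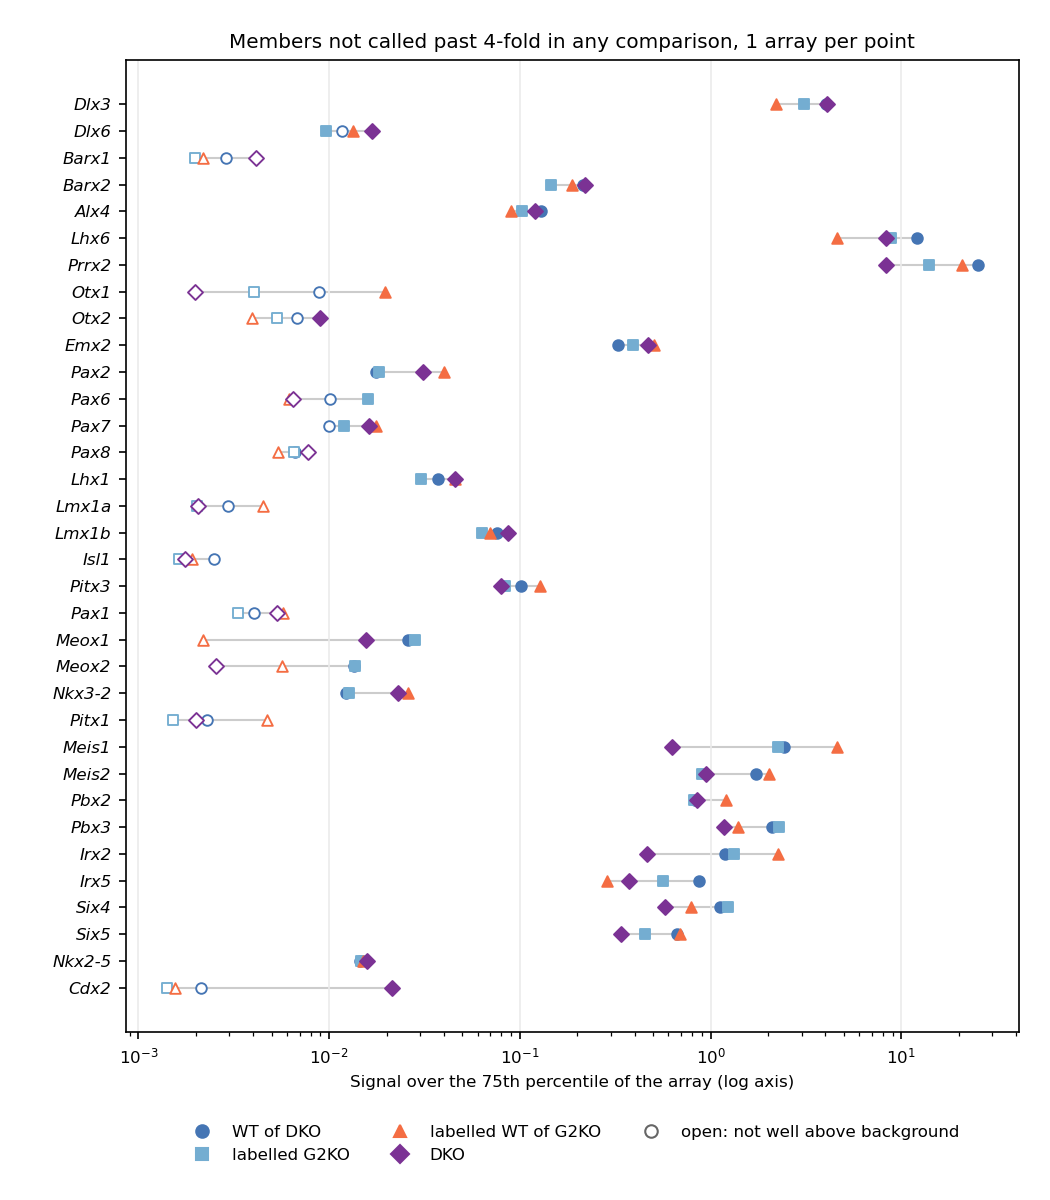
Levels of the 34 members not called past 4-fold in any of the 3 comparisons, 1 point per array, on a log axis of signal over the array's 75th percentile; open points are not well above background. Prrx2, Lhx6 and Dlx3 lie above 2 on every array, and 6 genes have open points on all arrays.

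The DKO calls depended in part on the control array. With the labelled G2KO as the control, 15 of 47 members differed at least 4-fold (12 lower and 3 higher), all of them among the 16. With the labelled WT of G2KO as the control, 13 of 44 did (9 lower and 4 higher), and 8 of the 16 were among them: Dlx4, Lhx2 and Six2 higher, and Dlx1, En1, Irx1, Msx2 and Pax9 lower. Alx1 and Lhx8 were dim on both arrays there, and Irx3 had a log2 ratio of 0.56 in place of -3.46. Of all genes, 8.58% and 9.62% differed at least 4-fold in these pairs. Without scaling, the split of members on the labelled G2KO was 10 higher and 2 lower, in place of 8 and 5, and 6 and 2 after another background correction (normexp).

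Promoter sequences from RefSeq (GRCm38.p6) were read for 39 of the 54 members, with 49 start sites, because many members differ together. Each entry holds 300 bases, most of them upstream of the start. Members had a median GC content of 60.7% and 17 CpG sites per promoter, against 52.7% and 7 over all 32851 promoters. The letters TAATTA, which hold the core bound by many homeodomains, occurred in 4 of the 49 (8.16%, against 5.29% of all promoters), in Emx2, Msx2 and 2 of the 4 Otx2 starts. The core TAAT, on either strand and counted also inside TAATTA, occurred in 26 (53.1%, against 58.0%). A match is only a description of the letters. The 100 bases just upstream of the start are shown for genes with unlike patterns, with CpG sites in capitals: Dlx1, Lhx8 and Shox2, bright on the labelled G2KO and the WT of DKO, Lhx2 and Six2, high on DKO, and En1, highest on the labelled WT.
Dlx1, chr2:71529345-71529444, plus strand: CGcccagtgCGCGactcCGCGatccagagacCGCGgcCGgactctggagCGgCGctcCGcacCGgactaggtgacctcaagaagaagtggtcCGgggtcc
Lhx8, chr3:154330561-154330660, minus strand: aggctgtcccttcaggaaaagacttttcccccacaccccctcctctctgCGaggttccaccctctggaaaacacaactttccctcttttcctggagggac
Shox2, chr3:66981772-66981871, minus strand: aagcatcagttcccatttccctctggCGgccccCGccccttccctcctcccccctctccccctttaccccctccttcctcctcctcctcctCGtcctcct
Lhx2, chr2:38339181-38339280, plus strand: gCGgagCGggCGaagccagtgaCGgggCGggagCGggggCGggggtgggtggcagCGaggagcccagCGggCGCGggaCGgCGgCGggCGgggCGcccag
Six2, chr17:85688255-85688354, minus strand: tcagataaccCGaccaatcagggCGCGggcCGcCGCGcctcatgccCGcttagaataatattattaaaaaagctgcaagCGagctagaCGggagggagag
En1, chr1:120602387-120602486, plus strand: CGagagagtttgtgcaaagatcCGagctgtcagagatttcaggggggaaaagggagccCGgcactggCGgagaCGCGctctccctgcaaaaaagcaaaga
These stretches held 13 CpG sites in Dlx1, 16 in Lhx2 and 9 in Six2, against 1 in Lhx8, 3 in Shox2 and 6 in En1, so genes with the same order of arrays had unlike CpG content. A second Lhx2 start, with 5 CpG sites in the same stretch, is not shown.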

How the data were processed

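The authors deposited 4 Agilent Feature Extraction files (version 10.7.3.1 in the file headers, 10.5.1.1 in the submitters' processing notes) with 1 processed signal intensity per spot, corrected for background within the array by the scanner software. The series-wide deposited table repeats these intensities (largest log2 difference 0). The labels describe single-color arrays, whereas the methods describe dye swaps for G2KO MEFs.

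From these, control spots and spots flagged as outliers (107 to 140 per array) were left out, log2 intensity was set relative to the array's 75th percentile (signals of 1586.21 to 2233.61), and spots of a probe were averaged. For a gene with several probes (12 members), the probe with the highest mean over the arrays was used. On a dim array the level was raised, where lower, to the minimum among probes well above background (11.362 to 19.233), and the ratio given as a limit. Members at least 4-fold apart, limits included, were counted and named, with up to 4 genes per other list and comparison, of which 1 is not reported here. With 1 array per label no test was made. Members and lists were chosen with earlier results of these data known. Also searched by name and not on the array were Drgx, Shox, Map2, Tfap2a and Tfap2b. The calculation was tested on simulated data. The number of arrays limits the precision: only 5 of 70 member probes have several spots.

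Alternatives were normexp (offset 50), quantile normalization, median scaling, no scaling, the deposited table, other filters and probe rules, 2-fold and 10-fold thresholds and other control arrays. Python 3.11.15 (numpy 2.4.6, pandas 2.3.3, matplotlib 3.10.9) and R 4.3.3 (limma 3.58.1) were used. Probe positions are on mm9, as in the files.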

Additional observations from a re-analysis of the deposited data

How the results depend on the processing

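Of 43 member ratios past 4-fold, 11 fell below 4-fold under normexp, 2 under quantile normalization, 2 under median scaling, 4 without scaling and in the deposited table, 1 with the median over probes, and 0 with outlier spots kept, without filter, or with the probe of the largest ratio. None of these settings changed a direction. Without scaling the median of all genes in the G2KO comparison was 0.33 in place of -0.17. The count in DKO over its WT was 16 and became 7 where both arrays had to be well above background, so 9 of the 16 are limits. The count in the labelled G2KO over the labelled WT was 13 and became 8 under normexp, 23 at 2-fold, 8 at 10-fold, 3 against the mean of both WT arrays and 0 against the WT of DKO. Between the WT arrays it was 14, with 22 at 2-fold and 9 at 10-fold. With the other comparison's WT array, some ratios changed sign. In DKO, Irx3 went to 0.56 and, below 4-fold before, Pax3 to 2.14, En2 to -8.44 and Meis3 to 1.89. On the labelled G2KO, Alx1 went to -0.68, Dlx5 to -0.40, Irx3 to -0.41, Lhx8 to -1.77 and Msx2 to 0.10. There Nkx6-1 went to 0.07, Pax3 to -0.48, Shox2 to -0.81 and Six2 to -0.24. Lhx2, dim on the WT of DKO, went to at least 0.76 there. Below 4-fold before, Dlx1 went to -0.58, Lhx9 to -0.32, Meis3 to -0.92 and Pax9 to -0.20 on that array. The cause was not tested. The control array labelled G2KO was an alternative chosen after seeing the data. No paired analysis was possible because each label has 1 array.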
